A study of Mus musculus with 20 samples.

Results

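The genes described here make and load the classical MHC class I molecules of the mouse. They are the heavy chain genes H2-K1 and H2-D1, the light chain gene B2m, the peptide transporter genes Tap1 and Tap2, the tapasin gene Tapbp, the immunoproteasome subunit genes Psmb8, Psmb9 and Psmb10, and Nlrc5, a transcriptional activator of class I genes. They were chosen by name, 10 genes of the 45318 Ensembl identifiers in the count tables, and 10 of 10 were found and passed the filter on low counts. Levels are CPM, counts scaled to a common library size with edgeR's TMM factors, and tests are edgeR's quasi-likelihood tests over 18698 genes with Benjamini-Hochberg adjustment, called at an adjusted p under 0.05.

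Polyadenylated RNA from 20 FVB mouse samples was sequenced to compare mammary tumors and tumor organoids with normal mammary organoids. Organoids are small clusters of epithelium, here grown in matrigel with FGF2. Neu-NDL organoids (MMTV-Neu-NDL, 3 libraries, 6 days of culture) carried an activated Neu (Erbb2) transgene. PyMT organoids (MMTV-PyMT, carrying polyomavirus middle T antigen) were taken at 6 days in 3 libraries titled day 6 and in 2 more with no day in the title, called undated here, and 3 further libraries were made directly after preparation, at day 0. Neu-NT tumor sections (MMTV-Cre;Flox-Neo-Neu-NT, 3 libraries) came from tumors in which Cre switches on an activated Neu allele, and PyMT tumor sections (MMTV-PyMT, 3 libraries) from tumors with the same transgene as the PyMT organoids. Both kinds of section were cryosections of 30 µm with no culture. WT organoids (wild type, 3 libraries, 6 days of culture) came from normal mammary gland and are the only normal group. The mouse mammary tumor virus promoter, active mainly in mammary epithelium, drives each transgene and the Cre, so leukocytes and stroma in these samples carry the transgene but should express little of it. The labels do not say whether each library of a group stands for its own animal, so a p-value here rests on scatter among libraries, which may be partly technical. The growth conditions are described for tumor organoids only.

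MHC class I molecules show peptides from inside the cell to CD8+ T cells. Proteasomes cut proteins into peptides, and in the immunoproteasome the catalytic subunits Psmb8, Psmb9 and Psmb10 replace the constitutive subunits Psmb5, Psmb6 and Psmb7. The transporter formed by Tap1 and Tap2 moves peptides into the endoplasmic reticulum, where tapasin holds the empty heavy chain and B2m next to it. Interferons raise most of these genes together, in part through Irf1 and Nlrc5, and tumors often lower them. Epithelial cells express class I at a low level and leukocytes at a high one, so in bulk tissue more cells of a type and more RNA per cell cannot be told apart.

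Of the 10 genes, 7 lie together in the MHC on chromosome 17 (mm10 coordinates from GENCODE). H2-K1 (33996017 to 34000347, minus strand) and H2-D1 (35262730 to 35267499, plus strand) flank a block in which Psmb9 (34181987 to 34187764), Tap1 (34187553 to 34197225), Psmb8 (34197721 to 34201454) and Tap2 (34203527 to 34216321) stand side by side, and Tapbp lies at 33915899 to 33929292. Psmb9 runs on the minus strand and Tap1 on the plus strand, their start sites 211 bases apart, and Psmb8 begins 495 bases after Tap1 ends. B2m lies on chromosome 2 (122147686 to 122153083), and Psmb10 (105935735 to 105938444) and Nlrc5 (94434356 to 94527272) on chromosome 8.

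Promoters of 4 of these genes are shown because class I genes are known for a compact promoter that interferon, NF-kappa B and Nlrc5 act on. RefSeq (build GRCm38.p6) gave a window of 300 bases around the gene start for 8 of the 10 genes, and not for Tap2 and Nlrc5. The windows are chr17:34000298-34000597 (minus strand) for H2-K1, chr17:35262844-35263143 (plus) for H2-D1, chr2:122147437-122147736 (plus) for B2m and chr17:34187306-34187605 (plus) for Tap1. Capitals mark matches, on either strand, to the interferon regulatory factor element GAANNGAAA, the kappa B element (GGG, 2 free bases, TT, 1 free base, CC), the X2 element TGACG and the Y element CCAAT.
H2-K1: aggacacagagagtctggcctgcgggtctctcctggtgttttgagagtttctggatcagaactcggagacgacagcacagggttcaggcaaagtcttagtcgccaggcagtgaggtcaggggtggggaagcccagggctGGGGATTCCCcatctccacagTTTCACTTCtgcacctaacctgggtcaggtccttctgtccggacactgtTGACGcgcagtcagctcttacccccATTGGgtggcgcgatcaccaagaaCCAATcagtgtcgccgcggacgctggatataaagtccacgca
H2-D1: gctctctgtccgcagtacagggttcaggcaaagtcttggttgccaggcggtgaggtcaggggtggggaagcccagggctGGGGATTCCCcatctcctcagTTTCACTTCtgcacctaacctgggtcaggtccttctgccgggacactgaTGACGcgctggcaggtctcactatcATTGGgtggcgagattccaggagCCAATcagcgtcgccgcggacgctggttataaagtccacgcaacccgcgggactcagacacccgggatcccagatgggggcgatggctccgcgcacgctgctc
B2m: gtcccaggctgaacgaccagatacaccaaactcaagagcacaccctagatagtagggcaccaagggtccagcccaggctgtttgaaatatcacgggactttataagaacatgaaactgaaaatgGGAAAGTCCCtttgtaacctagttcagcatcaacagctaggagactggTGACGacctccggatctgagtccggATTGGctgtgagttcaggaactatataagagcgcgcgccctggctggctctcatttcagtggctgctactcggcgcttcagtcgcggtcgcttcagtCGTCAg
Tap1: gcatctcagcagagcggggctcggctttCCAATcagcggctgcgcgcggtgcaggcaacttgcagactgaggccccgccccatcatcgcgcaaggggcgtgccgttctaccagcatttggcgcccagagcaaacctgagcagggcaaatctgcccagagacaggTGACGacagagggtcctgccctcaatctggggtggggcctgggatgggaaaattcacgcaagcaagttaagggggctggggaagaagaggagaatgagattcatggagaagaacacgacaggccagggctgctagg
In both heavy chain promoters a kappa B match is followed by an interferon regulatory factor match, an X2 match and a pair of Y matches. The B2m window holds the kappa B, X2 and Y matches and no match to GAANNGAAA as searched. Just before its kappa B match it reads gaaactgaaa, letters with another spacing that this search does not cover. Whether B2m lacks an interferon element is thus not shown. The Tap1 window holds an X2 and a Y match. The Psmb9 window overlaps that of Tap1 on the other strand and shares both of its matches, so 5 of the 8 windows hold X2 and Y together, as do 7.76% of 32544 RefSeq promoters. Singly, 7.57% of those promoters hold the interferon element, 4.78% kappa B, 20.9% X2 and 37.4% Y. A further element that was searched, GAS (TTCNNNGAA), matched in the Psmb8 window only, and in 8.33% of those promoters. The Psmb10 window held no match to any of these elements. No 2 matches overlapped. Such matches are letters in a window and not measured binding.

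Libraries held 17478357 to 48341438 counts in genes. Day 6 replicate 3 and Neu-NT replicate 3 stood apart from their groups. PyMT day 6 replicate 3 had 685 CPM over 13 macrophage and myeloid markers and 2742 CPM over 7 fibroblast markers, whereas day 6 replicates 1 and 2 had 31.8 and 43.6 CPM of myeloid and 65.1 and 51.8 CPM of fibroblast markers. Neu-NDL replicate 1 also had more fibroblast RNA than its fellows, at 2896 CPM against 154 and 192 CPM. Neu-NT section replicate 3 had 1924 CPM of myeloid markers, against 607 and 417 CPM in its fellow sections, and 26.4 CPM of the basal keratin Krt5, against 0.0756 and 0.225 CPM. Undated replicate 1 had 6.05% mitochondrial counts, against at most 2.79% in any other library, and the lowest TMM factor (0.827). Results are given with and without day 6 replicate 3 and Neu-NT replicate 3 together, called the 2 libraries that stood apart. Neu-NDL replicate 1 and undated replicate 1 stayed in both. The epithelial marker Epcam was present in every library, between 897 and 2218 CPM.

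In the fit of all 20 libraries most calls over WT organoids were in Neu-NT sections, where 8 of the 10 genes passed the test. In each of the other groups tested against WT, 2 or 3 of the 10 passed, and day 0 organoids were not tested against WT. This order depended on the fit. With only the libraries compared and the replicate number as a block it turned, with 6 in Neu-NT sections and 8 in PyMT sections. Over all genes, 1702 and 4052 were called there, in either direction. Same-numbered section and WT libraries hardly varied together (r = 0.027, 0.026 and 0.043 for Neu-NT, -0.038, -0.071 and 0.035 for PyMT). DESeq2 kept the order, with 8 called in Neu-NT sections and 7 in PyMT sections. It called 4579 and 3594 genes over the whole table, in either direction. H2-K1, H2-D1 and Nlrc5 were above the highest WT library in 17 of 17 tumor libraries, Tapbp in 16, B2m, Tap1 and Psmb8 in 15, Tap2 in 14, Psmb10 in 13 and Psmb9 in 12. No share over all genes is given for these pooled counts, so they only describe levels. In Neu-NDL organoids 2 of the 10 genes were called higher (2.47% of all genes were called higher) and 8 did not overlap with WT (17.0% of all genes). In PyMT 6 day organoids, the day 6 and undated libraries together, 2 were called higher (1.40%) and 5 did not overlap (6.36%). Neu-NT sections had 8 called higher (10.5%) and 10 that did not overlap (19.4%), and PyMT sections 3 called higher (6.45%) and 7 that did not overlap (23.2%). None was called lower in any of these 4 comparisons, where 2.06% of all genes were lower in Neu-NDL organoids, 2.49% in PyMT 6 day organoids, 8.47% in Neu-NT sections and 6.05% in PyMT sections. None lay below WT without overlap either (19.2%, 9.87%, 21.3% and 23.1% of all genes in the same order). Only Psmb10 in Neu-NDL organoids had a log2 fold change below 0 (-0.01). The median log2 fold change over the 10 genes was 1.00 in Neu-NDL organoids, 0.99 in PyMT 6 day organoids, 1.58 in Neu-NT sections and 1.22 in PyMT sections, against medians over all genes of 0.02, 0.01, 0.03 and 0.03. The 4 comparisons share the 3 WT libraries, and in the sections tissue, culture and genotype differ from WT together and cannot be told apart.

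**Figure D1:**
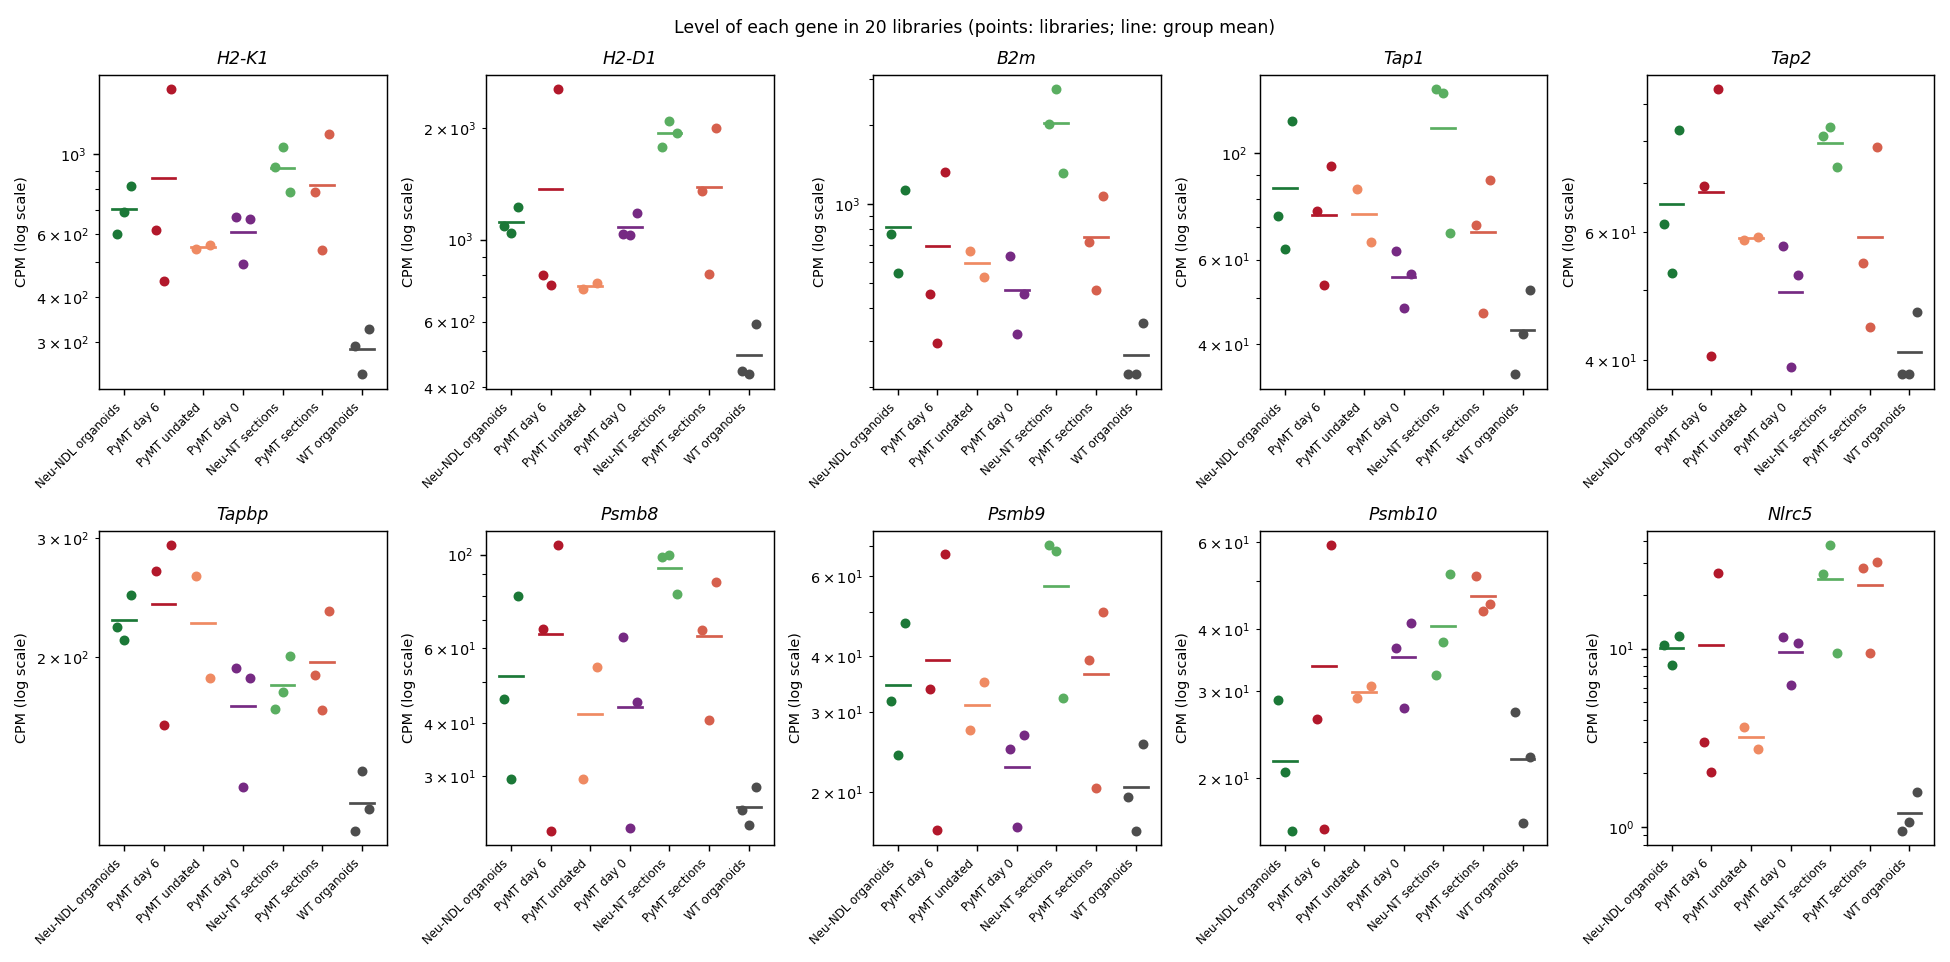
Each panel gives the CPM of 1 gene (log scale) in all 20 libraries, grouped along the horizontal axis with WT organoids at the right; points are libraries and lines are group means. WT organoids are at or near the bottom of most panels, Neu-NT sections reach 2746 CPM for B2m, and PyMT day 6 replicate 3 stands above its fellows for H2-K1, H2-D1 and Nlrc5.

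The heavy chain gene H2-K1 was at 601, 692 and 817 CPM in Neu-NDL organoids. PyMT organoids had 616, 444 and 1519.9 CPM at day 6, 545 and 558 CPM in the undated pair, and 671, 495 and 662 CPM at day 0. Neu-NT sections had 921, 1046 and 785 CPM and PyMT sections 784, 541 and 1141 CPM, against 293, 244 and 326 CPM in WT organoids. Every tumor library was above every WT library, and the undated pair and the day 0 organoids lay below every Neu-NT section. On the log2 scale the difference from WT was 1.29 in Neu-NDL organoids (SE 0.36, adjusted p = 0.0527), 1.26 in PyMT 6 day organoids (SE 0.34, adjusted p = 0.0477), 1.67 in Neu-NT sections (SE 0.36, adjusted p = 0.00612) and 1.52 in PyMT sections (SE 0.36, adjusted p = 0.0181). The call in PyMT 6 day organoids was lost in 12 of 20 fits that left out 1 library in turn (adjusted p = 0.0513 to 0.184), among them each WT and each undated library. The call in PyMT sections was lost without any WT library or PyMT section replicate 3 (adjusted p = 0.0547 to 0.0717).

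H2-D1, the other classical heavy chain gene annotated here, was at 1086, 1041 and 1223 CPM in Neu-NDL organoids. PyMT organoids had 805, 753 and 2559 CPM at day 6, 736 and 764 CPM undated, and 1036, 1029 and 1180.3 CPM at day 0. Neu-NT sections had 1776, 2092 and 1948 CPM and PyMT sections 1351, 808 and 2009 CPM, against 440.2, 432 and 589.8 CPM in WT organoids. The Neu-NT sections were close to each other and above 15 of the other 17 libraries, while the 2559 CPM of day 6 replicate 3 was the highest value of all. H2-D1 was called higher in Neu-NT sections (log2 value 1.99, SE 0.40, adjusted p = 0.00377) and PyMT sections (1.51, SE 0.39, adjusted p = 0.0234), with values of 1.20 (SE 0.39, adjusted p = 0.0852) in Neu-NDL organoids and 1.06 (SE 0.36, adjusted p = 0.107) in PyMT 6 day organoids. The PyMT section call of H2-D1 was lost without any WT library or PyMT section replicate 1 or 3 (adjusted p = 0.0585 to 0.0933). FVB mice carry another MHC haplotype than the reference genome, and windows of 50 bases shared with other annotated genes made up 9.63% of H2-K1 and 12.8% of H2-D1, so counts of these polymorphic genes are uncertain; the effect was not tested.

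B2m, the light chain shared by all class I molecules, was at 766, 544 and 1134 CPM in Neu-NDL organoids. In PyMT organoids it was at 455, 295 and 1321 CPM at day 6, 662 and 525 CPM undated, and 635, 318 and 454 CPM at day 0. Neu-NT sections had 2024, 2746 and 1308 CPM and PyMT sections 714, 469.7 and 1069 CPM, against 224, 225 and 351 CPM in WT organoids. Neu-NT sections lay above every PyMT section, and 15 of the 17 tumor libraries lay above WT, the exceptions being day 6 replicate 2 and day 0 replicate 2. B2m had the largest rise of the chain genes in Neu-NT sections (log2 value 2.93, SE 0.52, adjusted p = 0.00188). It was not called in Neu-NDL organoids (1.61, SE 0.49, adjusted p = 0.0706), PyMT 6 day organoids (1.27, SE 0.45, adjusted p = 0.127) or PyMT sections (1.495, SE 0.49, adjusted p = 0.056).

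Per kilobase of annotated exon, B2m was the most abundant of the 10 in every group, with a mean of 2356 CPM per kilobase in Neu-NT sections and 310 in WT organoids. H2-D1 followed with 752 and 189, H2-K1 with 312 and 97.8, and Tapbp with 50.1 and 33.5 in the same groups. The transporter and immunoproteasome genes lay between 15.6 and 27.5 in Neu-NT sections and between 5.59 and 12.8 in WT organoids. Nlrc5 was the lowest, at 2.88 in Neu-NT sections and 0.141 in WT organoids.

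Tap1, the first subunit of the peptide transporter, was at 73.8, 63.1 and 116 CPM in Neu-NDL organoids. PyMT organoids had 75.6, 53.0 and 93.9 CPM at day 6, 84.0 and 65.4 CPM undated, and 62.4, 47.6 and 55.9 CPM at day 0. Neu-NT sections had 136, 133 and 68.1 CPM and PyMT sections 70.6, 46.4 and 87.8 CPM, against 34.6, 42.1 and 52.0 CPM in WT organoids. The organoids at 6 days of both oncogenes lay above WT without overlap, and replicates 1 and 2 of the Neu-NT sections were the highest of all libraries. Tap1 was called in Neu-NT sections (log2 value 1.39, SE 0.31, adjusted p = 0.00753) and had values of 0.98 (SE 0.31, adjusted p = 0.0812) in Neu-NDL organoids, 0.80 (SE 0.29, adjusted p = 0.127) in PyMT 6 day organoids and 0.67 (SE 0.31, adjusted p = 0.155) in PyMT sections.

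Tap2, the second transporter subunit, ranged less, from 39.1 CPM in day 0 replicate 2 to 94.4 CPM in day 6 replicate 3 among tumor libraries, with 38.2, 38.2 and 46.5 CPM in WT organoids. Its 3 Neu-NT values of 81.2, 83.7 and 73.7 CPM gave the only call (log2 value 0.96, SE 0.27, adjusted p = 0.0225), and the other 3 fold changes over WT lay between 0.53 and 0.68 on the log2 scale. The call was lost without WT replicate 1 or 2 or Neu-NT replicate 1 or 2 (adjusted p = 0.0507 to 0.0813).

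Tapbp, which encodes tapasin, had a different order of groups. Neu-NDL organoids had 222, 212 and 247 CPM. PyMT organoids had 268, 158 and 293 CPM at day 6, 264 and 186 CPM undated, and 193, 128 and 186 CPM at day 0. Neu-NT sections had 167, 178 and 201 CPM and PyMT sections 188, 167 and 234 CPM, against 110.3, 135 and 119 CPM in WT organoids. Only day 0 replicate 2 overlapped with WT, and the 3 cultured tumor groups had the highest means. Tapbp was called higher in Neu-NDL organoids (log2 value 0.90, SE 0.23, adjusted p = 0.0345) and PyMT 6 day organoids (0.93, SE 0.21, adjusted p = 0.0243), with 0.58 (SE 0.23, adjusted p = 0.082) in Neu-NT sections and 0.69 (SE 0.23, adjusted p = 0.0548) in PyMT sections. Both calls were lost without any WT library, that in Neu-NDL organoids also without Neu-NDL replicate 2 or 3 (adjusted p = 0.0791 to 0.124) and that in PyMT 6 day organoids also without undated replicate 1 (adjusted p = 0.0703 to 0.1). Tapbp overlaps Zbtb22 on the same strand for 3422 bases, and its counts are uncertain there.

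**Figure D2:**
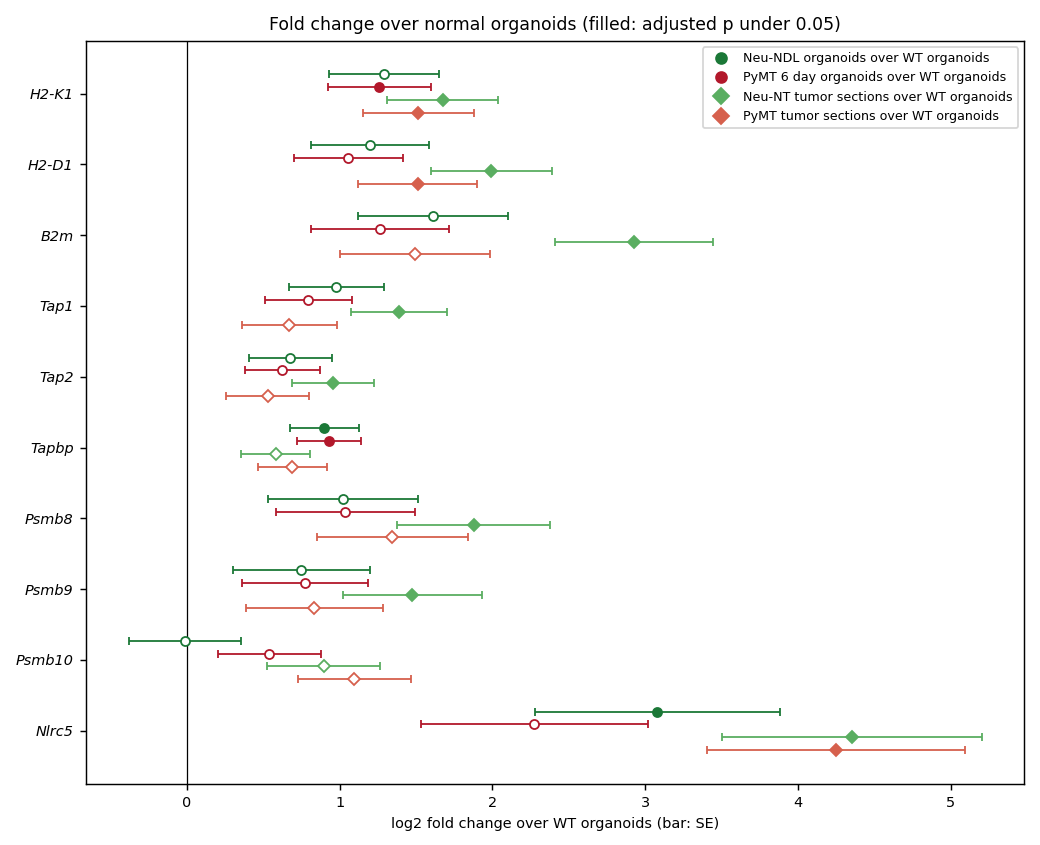
Points give the log2 fold change of each gene over WT organoids and bars its SE, for 4 comparisons; filled points have an adjusted p under 0.05. All points but that of Psmb10 in Neu-NDL organoids lie right of 0, and Nlrc5 lies farthest right, at 4.35 in Neu-NT sections.

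The immunoproteasome gene Psmb8, whose product replaces the chymotrypsin-like subunit Psmb5, was at 45.6, 29.5 and 79.7 CPM in Neu-NDL organoids. PyMT organoids had 66.7, 22.2 and 105 CPM at day 6, 29.5 and 54.3 CPM undated, and 63.7, 22.5 and 44.9 CPM at day 0. Neu-NT sections had 98.7, 99.9 and 80.7 CPM and PyMT sections 66.3, 40.8 and 85.9 CPM, against 24.9, 22.9 and 28.2 CPM in WT organoids. Tumor groups other than the Neu-NT sections spread widely, and replicate 2 of the PyMT day 6 and day 0 organoids lay below the lowest WT library. Psmb8 was called in Neu-NT sections (log2 value 1.88, SE 0.50, adjusted p = 0.0173) and had values between 1.03 and 1.34 in the other 3 comparisons with WT, none of which passed. The call was lost without any WT library (adjusted p = 0.0508 to 0.0685).

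Psmb9, which replaces Psmb6, had 70.2, 68.3 and 32.2 CPM in Neu-NT sections, against 19.5, 16.4 and 25.5 CPM in WT organoids. The first 2 of these sections were the highest of all libraries and gave a call (log2 value 1.48, SE 0.45, adjusted p = 0.0336), while the other 3 comparisons with WT overlapped and had values between 0.75 and 0.84 that did not pass. The Psmb9 call was lost without any WT library or Neu-NT replicate 1 or 2 (adjusted p = 0.0596 to 0.12). Psmb10, which replaces Psmb7, went its own way: it was at 28.7, 20.5 and 15.6 CPM in Neu-NDL organoids, between 15.7 and 59.2 CPM in the 8 PyMT organoid libraries, 32.3, 37.7 and 51.8 CPM in Neu-NT sections and 51.3, 43.6 and 44.95 CPM in PyMT sections, against 27.2, 16.2 and 22.1 CPM in WT organoids. Both kinds of section lay above WT without overlap, but neither passed the test (0.90, SE 0.37, adjusted p = 0.1 in Neu-NT sections and 1.10, SE 0.37, adjusted p = 0.0619 in PyMT sections).

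Set against the constitutive subunit it replaces, Psmb8 showed the clearest shift. The log2 ratio of Psmb8 to Psmb5 counts was 1.27, 1.67 and 0.28 in Neu-NT sections and 1.15, 0.29 and 1.03 in PyMT sections, against -0.67, -0.25 and -0.04 in WT organoids. Neither section group overlapped with WT. The mean log2 ratio over the 3 pairs of subunits differed from WT by 0.37 in Neu-NDL organoids (two-sided exact permutation test, p = 0.2), 0.38 in PyMT 6 day organoids (exact p = 0.286), 0.80 in Neu-NT sections (exact p = 0.1) and 0.69 in PyMT sections (exact p = 0.1). With 3 libraries a side the smallest possible p is 0.1, and no value passed after adjustment over the 8 comparisons (adjusted p = 0.4 to 1). Psmb10 over Psmb7 differed between the tumor types, at -3.10, -2.49 and -2.24 in Neu-NT sections and -1.48, -1.98 and -1.87 in PyMT sections, which did not overlap (difference -0.84, not tested singly). Of 13 constitutive proteasome and activator genes none was called in Neu-NDL organoids, PyMT 6 day organoids or PyMT sections by edgeR, where 1, 0 and 2 had an unadjusted p under 0.05 and DESeq2 called none. Psmb7 alone was called in Neu-NT sections (0.84, SE 0.21, adjusted p = 0.0114).

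**Figure D3:**
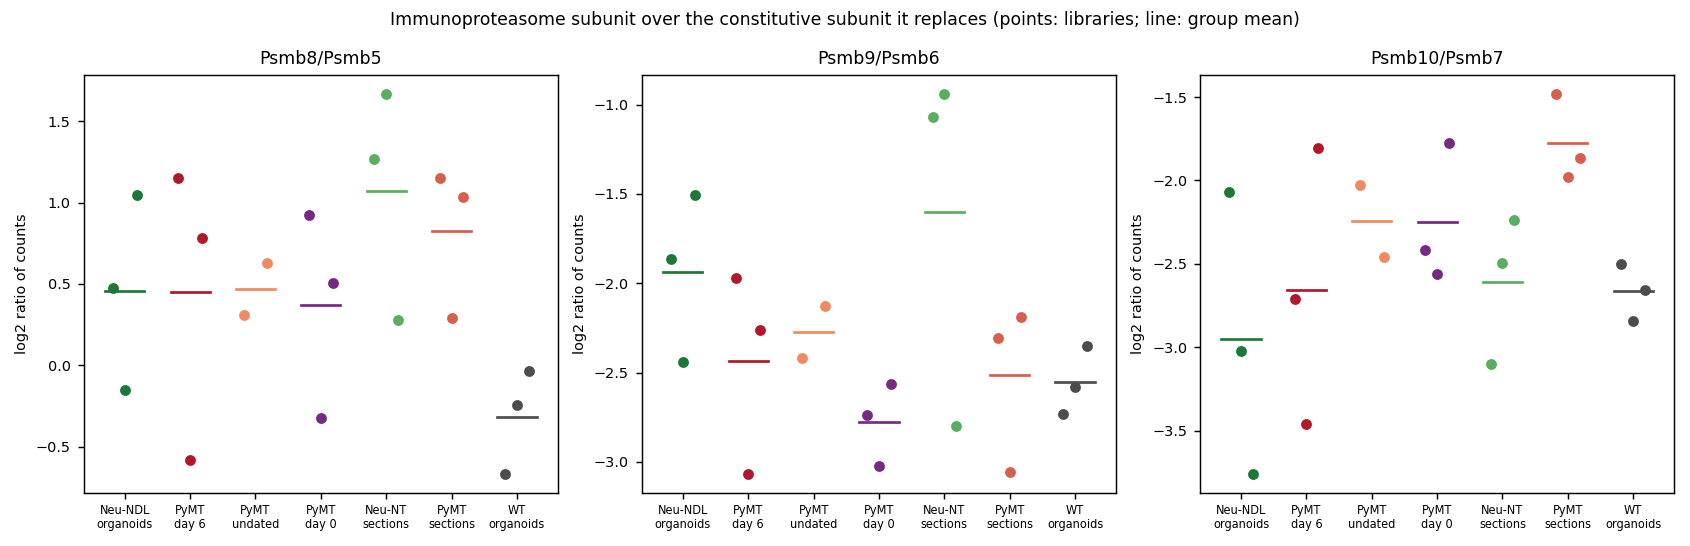
The log2 ratio of counts of each immunoproteasome subunit to the constitutive subunit it replaces is shown for all 20 libraries, with WT organoids at the right; points are libraries and lines group means. Psmb8 over Psmb5 is above WT in every section, whereas Psmb10 over Psmb7 is high in PyMT sections and near WT in Neu-NT sections.

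Nlrc5, the activator of class I genes, was the lowest of the 10 in level and had the largest fold changes. It was at 10.5, 8.10 and 11.8 CPM in Neu-NDL organoids. PyMT organoids had 2.98, 2.05 and 26.5 CPM at day 6, 3.66 and 2.73 CPM undated, and 11.6, 6.27 and 10.7 CPM at day 0. Neu-NT sections had 26.0, 38.0 and 9.42 CPM and PyMT sections 28.4, 9.40 and 30.5 CPM, against 0.955, 1.07 and 1.57 CPM in WT organoids. Every tumor library was above WT, the 4 PyMT 6 day libraries other than replicate 3 by the least. Nlrc5 was called in Neu-NDL organoids (log2 value 3.08, SE 0.80, adjusted p = 0.0401), Neu-NT sections (4.35, SE 0.85, adjusted p = 0.00336) and PyMT sections (4.25, SE 0.85, adjusted p = 0.00935), and had 2.28 (SE 0.74, adjusted p = 0.0961) in PyMT 6 day organoids. Without the 2 libraries that stood apart its value in PyMT 6 day organoids was 1.28 (adjusted p = 0.0353), a smaller difference that passed. The Neu-NDL call was lost in 7 of 20 fits that left out 1 library (adjusted p = 0.0519 to 0.143), namely any WT library, Neu-NDL replicate 2 or 3, undated replicate 2 or day 0 replicate 3. In the sections the Nlrc5 calls remained in 20 of 20 such fits, as did those of H2-K1, H2-D1, B2m and Tap1 in Neu-NT sections.

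Without the 2 libraries that stood apart, more of the 10 genes passed against WT. In Neu-NDL organoids 6 of the 10 passed (H2-K1, H2-D1, B2m, Tap1, Tapbp and Nlrc5) and in PyMT sections 7 (H2-K1, H2-D1, B2m, Tapbp, Psmb8, Psmb10 and Nlrc5), although neither group lost a library of its own. Over all genes, 2699 were then called in Neu-NDL organoids and 5024 in PyMT sections, in either direction, against 846 and 2337 with all libraries. PyMT 6 day organoids had 3 of the 10 and Neu-NT sections 8. Over all genes, 3071 and 5384 were then called in these groups, in either direction, against 728 and 3555 with all libraries.

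Between day 6 and day 0 PyMT organoids none of the 10 was called by edgeR (0.166% of all genes were called higher and 0.460% lower), 1 had an unadjusted p under 0.05 (Tapbp) and DESeq2 called none. The 10 log2 fold changes ran from -0.06 for Psmb10 to 0.78 for Psmb9, with a 95% interval of -0.27 to 1.27 for H2-K1, and all 10 overlapped (7.65% of all genes were higher and 8.74% lower without overlap). Without the 2 libraries that stood apart, the values of H2-K1 (-0.17), H2-D1 (-0.44), B2m (-0.29) and Nlrc5 (-1.90) turned below 0. Of these Nlrc5 passed (adjusted p = 0.012), in a fit that called 3499 genes in either direction, against 117 with all 20 libraries. Tap1 (0.245), Tap2 (0.17), Tapbp (0.36), Psmb8 (0.046) and Psmb9 (0.17) stayed above 0 there, and Psmb10 was at -0.72. In that fit 12 of 13 myeloid, 7 of 7 endothelial and 5 of 16 interferon stimulated genes were also lower at day 6, and their part in the Nlrc5 value was not tested. Same-numbered day 6 and day 0 libraries varied together, and a fit of these 6 libraries with the replicate number as a block called no gene over the whole table. Without the block the same 6 libraries gave 4 genes, and the fit of all 20 libraries gave 117. The undated pair, also cultured for 6 days, and day 6 replicates 1 and 2 lay below every day 0 library for H2-D1 (736 to 805 CPM, against 1029 to 1180.3 CPM at day 0) and Nlrc5 (2.05 to 3.66 CPM, against 6.27 to 11.6 CPM at day 0). Day 0 organoids against PyMT sections likewise gave no call (0.428% of all genes higher and 0.0160% lower), none at an unadjusted p under 0.05 and none by DESeq2. All 10 values were below 0, between -1.26 for Nlrc5 and -0.22 for Tapbp, and only Psmb10 did not overlap, at 36.7, 27.7 and 41.1 CPM in day 0 organoids and 51.3, 43.6 and 44.95 CPM in PyMT sections (10.6% of all genes were lower and 7.60% higher without overlap).

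Between oncogenes, Neu-NT sections had more B2m than PyMT sections in every library, by 1.43 on the log2 scale (SE 0.49, adjusted p = 0.0742). By edgeR none of the 10 was called in this comparison (5.13% of all genes were called higher and 4.57% lower), 2 had an unadjusted p under 0.05 (B2m and Tap1), and DESeq2 called 1. B2m was also the only one of the 10 without overlap (12.9% of all genes were higher and 14.5% lower without overlap). Without the 2 libraries that stood apart B2m (1.69, adjusted p = 0.00599) and Tap1 (1.00, adjusted p = 0.0197) passed. That fit called 4317 genes in either direction, against 1814 with all 20 libraries. With all 20 libraries H2-K1 differed by 0.16 (95% interval -0.61 to 0.93) and Nlrc5 by 0.10 (-1.48 to 1.69). Neu-NDL against PyMT 6 day organoids gave no call either (4.70% of all genes higher and 2.42% lower), none at an unadjusted p under 0.05 and none by DESeq2. The median of the 10 log2 fold changes was 0.04, all 10 overlapped (6.68% of all genes were higher and 6.36% lower without overlap), and H2-K1 was at 0.03 (95% interval -0.66 to 0.72), B2m at 0.35 (-0.58 to 1.28) and Nlrc5 at 0.80 (-0.61 to 2.22). Nlrc5 alone passed in that comparison without the 2 libraries (1.81, adjusted p = 0.00328). The same fit called 4514 genes in either direction, against 1331 with all 20 libraries.

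Leukocyte markers moved with part of this pattern. Ptprc, which encodes the pan-leukocyte protein CD45, was at 30.1, 20.7 and 12.1 CPM in Neu-NDL organoids. PyMT organoids had 0.488, 0.512 and 14.8 CPM at day 6, 0.369 and 0.884 CPM undated, and 12.1, 16.2 and 14.4 CPM at day 0. Neu-NT sections had 21.1, 14.2 and 50.4 CPM and PyMT sections 47.6, 28.2 and 19.6 CPM, against 1.32, 1.22 and 2.58 CPM in WT organoids. The 4 PyMT 6 day libraries other than replicate 3 were thus below every WT library for Ptprc. Their H2-K1 (444 to 616 CPM), H2-D1 (736 to 805 CPM), Tap1 (53.0 to 84.0 CPM), Tapbp (158 to 268 CPM) and Nlrc5 (2.05 to 3.66 CPM) were above every WT library. In the same 4 libraries the other 5 genes were not all above WT: in day 6 replicate 2 B2m was at 295 CPM, Tap2 at 40.5, Psmb8 at 22.2, Psmb9 at 16.5 and Psmb10 at 15.7 CPM, against WT highs of 351, 46.5, 28.2, 25.5 and 27.2 CPM. The undated pair alone gave no call among the 10, with a value of 0.94 over WT for H2-K1 (adjusted p = 0.261). Over all genes the undated pair gave only 88 calls in either direction, against 728 with both groups. The day 6 libraries alone, with replicate 3 among them, gave 4 calls among the 10, H2-K1, H2-D1, Tapbp and Nlrc5. No share over all genes is given for day 6 alone, so these 4 calls cannot be set against the whole table.

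The whole myeloid list of 13 genes summed to 459 to 2120 CPM in Neu-NDL organoids, 31.8 to 685 CPM in day 6 organoids, 73.2 to 106 CPM in the undated pair and 279 to 333 CPM at day 0. Neu-NT sections had 417 to 1924 CPM and PyMT sections 709.6 to 997 CPM, against 92.8 to 195 CPM in WT organoids. No more than 1 of the 13 was at 0 in any library. It had 4 of 13 called higher in Neu-NDL organoids, 0 in PyMT 6 day organoids, 10 in Neu-NT sections and 9 in PyMT sections, for example the macrophage receptor gene Csf1r (4.37 in Neu-NDL organoids, adjusted p = 0.0249, and 4.82 in PyMT sections, adjusted p = 0.0123). In PyMT 6 day organoids 1 of the 13 had an unadjusted p under 0.05 and DESeq2 called 1, and without the 2 libraries that stood apart 8 were called, 7 of them lower than in WT, and 13 of 13 were called higher in Neu-NDL organoids. Of 12 lymphocyte markers tested, none was called in Neu-NDL or PyMT 6 day organoids by edgeR (1 each at an unadjusted p under 0.05, and 1 and 0 by DESeq2), 7 rose in Neu-NT sections and 5 in PyMT sections. With the 2 libraries left out, 1 of the 12 was called in Neu-NDL organoids, 2 in PyMT 6 day organoids, both lower, 7 in Neu-NT sections and 8 in PyMT sections. The 14 T, B and NK cell markers summed to 2.84 to 10.7 CPM in Neu-NDL organoids, 1.33 to 6.52 CPM in PyMT 6 day organoids, 6.77 to 36.8 CPM in Neu-NT sections and 5.90 to 18.8 CPM in PyMT sections, against 2.09 to 4.52 CPM in WT organoids. In day 6 replicates 1 and 2, 11 and 10 of these 14 were at 0, and in WT organoids 5 to 8 were. The T cell gene Cd8a had 0.756, 0.901 and 5.64 CPM in Neu-NT sections and 2.32, 0.703 and 0.515 CPM in PyMT sections, and no count in WT organoids. How much of the class I difference in Neu-NDL organoids and in sections comes with these cells was not tested.

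**Figure D4:**
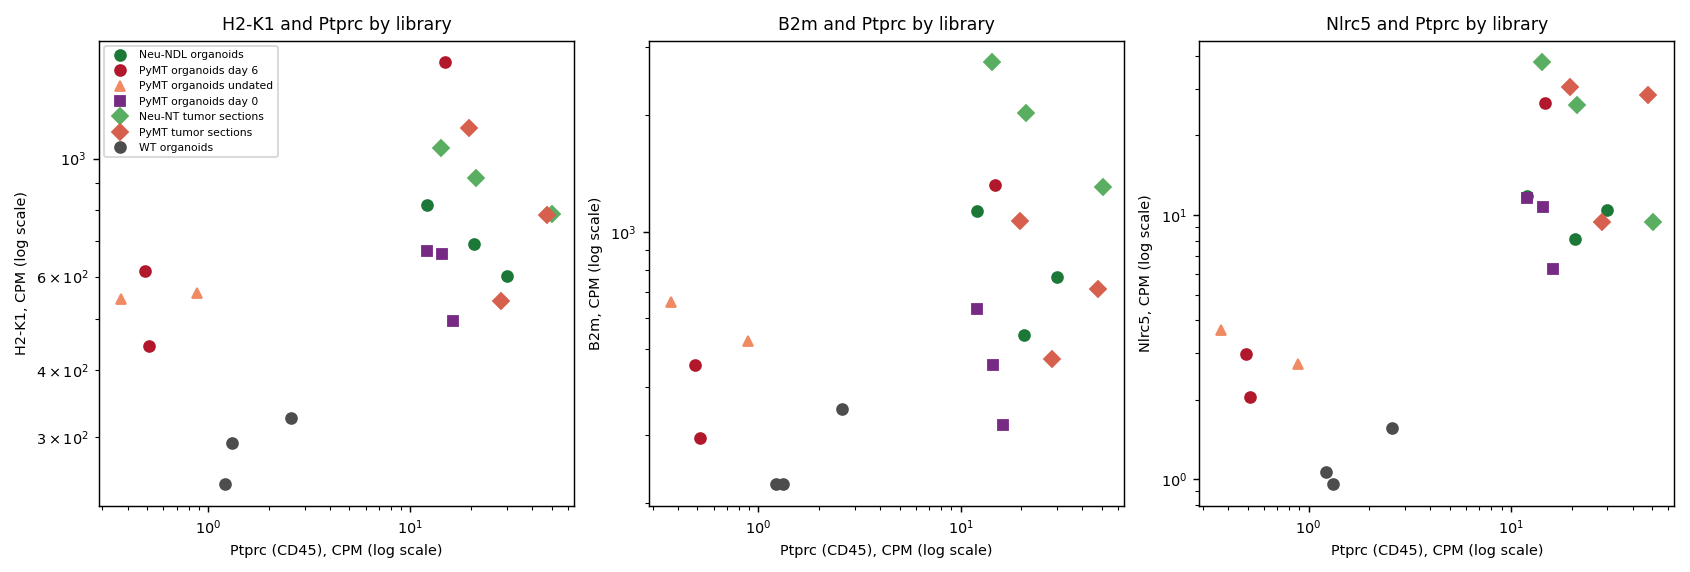
H2-K1, B2m and Nlrc5 (vertical, CPM, log scale) are plotted against the leukocyte gene Ptprc (horizontal, CPM, log scale), 1 point per library. Day 6 replicates 1 and 2 and the undated pair lie left of the WT organoids with Ptprc under 0.9 CPM, and above them for H2-K1 and Nlrc5.

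Across the 20 libraries Nlrc5 and Ptprc had r = 0.78 (Spearman's rho 0.58), H2-D1 and Ptprc 0.69 (0.66) and Tapbp and Ptprc 0.13 (0.07), as descriptions over libraries that share groups and tissue. For deviations from group means without the 2 libraries that stood apart (18 libraries), r with Ptprc ran from -0.48 for Tapbp to 0.35 for Psmb10.

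Other genes of the pathway moved with these 10 to different degrees. Of 7 peptide loading and trimming genes none was called in Neu-NDL or PyMT 6 day organoids by edgeR (4 and 2 at an unadjusted p under 0.05, 1 each by DESeq2), 4 were higher in Neu-NT sections and 2 in PyMT sections. They included the chaperone genes Hspa5 (1.505, adjusted p = 0.00227) and Calr (0.98, adjusted p = 0.0163) and the disulfide isomerase gene Pdia3 (0.97, adjusted p = 0.00415) in Neu-NT sections, and Canx (0.61, adjusted p = 0.0339) in PyMT sections. These chaperones serve all secreted proteins and not class I alone. Of 14 other class I and class I like genes, 1 rose in Neu-NDL organoids, none was called in PyMT 6 day organoids by edgeR (3 at an unadjusted p under 0.05, 1 by DESeq2), 4 rose and 1 fell in Neu-NT sections, and 3 rose in PyMT sections. These counts were 5 in Neu-NDL organoids, 1 in PyMT 6 day organoids, 8 in Neu-NT sections, 1 of them lower, and 6 in PyMT sections without the 2 libraries that stood apart. H2-Q7, a nonclassical class I gene, was higher in Neu-NDL organoids (1.93, adjusted p = 0.0458) and PyMT sections (1.75, adjusted p = 0.0389) and was also called higher in Neu-NT sections, and H2-T24 in Neu-NT (3.73, adjusted p = 0.0036) and PyMT sections (2.36, adjusted p = 0.0385). Mr1, which presents microbial metabolites to T cells, fell in Neu-NT sections (-1.48, adjusted p = 0.00991).

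Interferon stimulated genes were often called against WT. Of 16, 10 were higher in Neu-NDL organoids, 4 in PyMT 6 day organoids, 15 in Neu-NT sections and 14 in PyMT sections, with medians of 2.30, 1.32, 3.28 and 2.61 on the log2 scale. The antiviral gene Oas2 was at 26.5, 19.4 and 77.1 CPM in Neu-NDL organoids and 51.4, 12.0, 98.6, 10.4 and 5.42 CPM in PyMT 6 day organoids, against 0.387, 1.67 and 2.95 CPM in WT organoids (4.63 on the log2 scale in Neu-NDL organoids, adjusted p = 0.0131, and 3.64 in PyMT 6 day organoids, adjusted p = 0.0258). The restriction factor gene Bst2 rose in PyMT 6 day organoids (1.37, adjusted p = 0.045) and was higher in Neu-NT than in PyMT sections (1.90, adjusted p = 0.00882). Class II genes, which antigen presenting cells express, were called higher in 2 of 7 in Neu-NDL organoids, 0 in PyMT 6 day organoids (1 at an unadjusted p under 0.05, 0 by DESeq2) and 5 in each kind of section, such as H2-Aa in Neu-NT sections (7.38, adjusted p = 0.00754) and PyMT sections (7.09, adjusted p = 0.0163). In Neu-NDL organoids 4 class II genes were called without the 2 libraries. Between day 6 and day 0 PyMT organoids, 0 of the 16 interferon stimulated genes were called by edgeR (3 at an unadjusted p under 0.05, 1 by DESeq2), and their median was -0.45.

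The interferon genes themselves were scarce. Ifng had at most 4 counts in any library. Ifnb1 had 17, 30 and 0 counts in Neu-NT sections and 11, 9 and 8 counts in PyMT day 0 organoids, at most 2 in other tumor libraries and 0 in WT organoids. It was among 4 of 10 tested ligand, receptor and kinase genes that were called higher in Neu-NT sections, and its call rests on 2 sections. The interferon lambda receptor gene Ifnlr1 fell in all 4 comparisons with WT, by 1.07 on the log2 scale in Neu-NDL organoids (adjusted p = 0.0154), 0.74 in PyMT 6 day organoids (adjusted p = 0.0397), 1.14 in Neu-NT sections (adjusted p = 0.00264) and 1.11 in PyMT sections (adjusted p = 0.00821). It was at most at 45.6 CPM in the 17 tumor libraries, against 60.1, 51.1 and 61.4 CPM in WT organoids. Neither Ifngr1 nor Ifngr2, the interferon gamma receptor genes, was called in these comparisons.

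Of 16 regulators known to act on class I genes, 1 was higher in Neu-NDL organoids, none was called in PyMT 6 day organoids by edgeR (3 at an unadjusted p under 0.05, 1 by DESeq2), 5 were higher and 1 lower in Neu-NT sections, and 2 were higher and 1 lower in PyMT sections. In the fit without the 2 libraries that stood apart 4 were called in Neu-NDL organoids, 1 in PyMT 6 day organoids and 6 each in Neu-NT and PyMT sections. Stat2, a type I interferon signal transducer, was higher in Neu-NDL organoids (1.56, adjusted p = 0.00972), Neu-NT sections (1.68, adjusted p = 0.00146) and PyMT sections (1.60, adjusted p = 0.00603). Rfx5, part of the complex that binds the X box of class I and class II promoters, was lower in Neu-NT than in WT (-0.62, adjusted p = 0.0262) and than in PyMT sections (-0.90, adjusted p = 0.00798). Irf1 was lower in day 6 than in day 0 PyMT organoids (-1.23, adjusted p = 0.0317), with 59.5, 36.4 and 78.1 CPM at day 6 and 105, 119 and 183 CPM at day 0. This call was lost in the fit of these 6 libraries alone, with the replicate number as a block (-1.26, adjusted p = 0.434) and without it (-1.24, adjusted p = 0.417).

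Among markers of other cell types, none of 7 endothelial, 7 fibroblast or 5 adipocyte markers was called by edgeR against WT, although 7 of 7 endothelial markers lay above WT without overlap in PyMT sections. At an unadjusted p under 0.05 stood at most 2 endothelial, 1 fibroblast and 4 adipocyte markers in a comparison, and DESeq2 called at most 1, 1 and 2. By edgeR without the 2 libraries that stood apart, calls were made for 6 endothelial, 4 fibroblast and 2 adipocyte markers as lower in PyMT 6 day organoids, 1 endothelial marker as higher in Neu-NT sections, and 3 endothelial and 2 fibroblast markers as higher in PyMT sections. Of 7 luminal markers the junction gene Cldn3 alone was called, higher in Neu-NT sections (1.40 on the log2 scale), and without the 2 libraries 2 luminal markers were called in each comparison with WT. Basal markers were lower, 3 of 7 in Neu-NDL organoids, 4 in PyMT 6 day organoids, 5 in Neu-NT sections and 3 in PyMT sections. The basal marker sum was 94.7 to 549 CPM in Neu-NDL organoids, 64.4 to 6436 CPM in PyMT day 6 organoids, 1520 to 2470.1 CPM in the undated pair, 42.0 to 1655 CPM in Neu-NT sections and 53.5 to 255 CPM in PyMT sections, against 2387 to 3054 CPM in WT organoids. The sums of the day 6 organoids and of the undated pair overlapped with WT. Leaving out the 2 libraries that stood apart, 5 basal markers were lower in Neu-NDL organoids, 4 in PyMT 6 day organoids, 7 in Neu-NT sections and 6 in PyMT sections, and their part in the class I values was not tested.

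The 10 genes varied together from library to library. Over 45 pairs the median Pearson r of log2 CPM across 20 libraries was 0.79 (0.22 to 0.95), and 0.78 for deviations from group means. Psmb10 and Tapbp followed the others least, with a median r to the other 9 of 0.48 and 0.55. H2-K1, B2m and Tap2 followed them most, with 0.86, 0.87 and 0.87. In the PyMT day 6 organoids, the PyMT day 0 organoids and the PyMT sections, replicate 2 was the lowest of its group for 10 of the 10 genes. Replicate 3 of the PyMT sections had the highest H2-K1, H2-D1 and B2m of its group.

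Among 11375 other genes with a mean of at least 10 CPM in 1 group or more, those most like the mean z-score of the 10 were H2-T10, a class I gene annotated as a polymorphic pseudogene (r = 0.92 over 20 libraries), the interferon inducible gene Ifi27l2a (0.91), the endoplasmic reticulum stress factor gene Creb3l1 (0.91), the interferon inducible GTPase gene Irgm1 (0.91) and Ifitm3 (0.90). Sqstm1, which encodes an autophagy receptor (0.90), Cd38 (0.89), H2-Q6 (0.88), Gyg (0.88) and Ube2l6, an Isg15 conjugating enzyme gene (0.87), completed the first 10. Without the 2 libraries that stood apart these r lay between 0.85 and 0.93.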

How the data were processed

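RNA was extracted with TRIzol and polyadenylated RNA made into TruSeq libraries, per the labels. The authors deposited 1 table of raw read counts per gene for each library, with CASAVA, FastQC, STAR, HTSeq, DESeq2 and the mm10 build named in the submitters' processing notes. The annotation release and the strand setting of the counting are not given in the sources used here, so Tap1 and Psmb9, which overlap by 212 bases on opposite strands, may share reads. Beside the gene counts, 5.60% to 12.3% of reads fell on no feature and 4.68% to 7.39% were ambiguous, and these stayed out of library sizes. Identifiers were named with GENCODE M21 (44585 of 45318 matched).

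All 20 libraries in 7 groups were fitted together with edgeR 4.0.16 (R 4.3.3, prior count 2), after its filter on low counts, with 13 residual degrees of freedom. PyMT 6 day organoids are the average of the day 6 and undated groups. Subunit ratios used counts plus 0.5 and exact permutation tests (scipy 1.17.1). DESeq2 1.42.0, other size factors, no filter, left-out libraries, subsets and a replicate block were alternatives. Same-numbered day 6 and day 0 libraries varied together (r = 0.287, 0.428 and 0.317), which is why their blocked result is given. The fit was also tested on simulated data. Members and lists were chosen with earlier results of these data known. All 10 members are named, with up to 4 called genes per other list and comparison by size of change, the 10 genes most like the members, and a few added after their values were seen (Ptprc, Ifng, Ifngr1, Ifngr2 and Epcam).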

Additional observations from a re-analysis of the deposited data

Results flagged for a closer look

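Among the 5 PyMT 6 day organoid libraries, day 6 replicate 3 stood far above the others for H2-K1 at 1519.9 CPM, where the next highest had 616 CPM. The same library stood apart for H2-D1 at 2559 CPM, against a next highest of 805 CPM, and for Nlrc5 at 26.5 CPM, against a next highest of 3.66 CPM. It also held 14.8 CPM of Ptprc, against 0.369 to 0.884 CPM in the other 4, and the part of that difference was not tested. Day 6 replicate 2 stood below the others in the mean log2 ratio of immunoproteasome to constitutive subunits, at -2.37, against -1.38 to -1.09. In each case the gap to the nearest library, divided by the whole range, passed Dixon's critical value of 0.71 for 5 libraries. The 11 sets tested were the 10 genes and the mean ratio. Chance marks about 1 set in 20 when the values of a set come from 1 normal population. These sets pool the day 6 and undated groups, and the 10 genes varied together. That rate may therefore not hold, and the marks on day 6 replicate 3 are not separate evidence.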

How the results depend on the processing

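In the 4 comparisons with WT the direction of the 10 genes held under every alternative run except for Psmb10 in Neu-NDL organoids, which was at 0.014 with RLE factors, 0.016 with only the libraries compared, 0.0039 with the replicate block and 0.015 with DESeq2, and between -0.25 and 0.20 with 1 library left out. The number of calls did not hold, and the cause was not tested. The replicate block was fitted to only the libraries compared. Genes called numbered 846 in Neu-NDL organoids over WT, but 2699 without the 2 libraries that stood apart, 1907 with only the libraries compared, 399 with the replicate block and 2036 by DESeq2. For PyMT 6 day organoids over WT they numbered 728, but 88 with the undated pair alone, 3071 without the 2 libraries, 242 with the block and 1784 by DESeq2. Neu-NT sections over WT had 3555, but 5384 without the 2 libraries and 1702 with the block. PyMT sections over WT had 2337, but 5024 without the 2 libraries, 4870 with only the libraries compared, 4052 with the block and 3594 by DESeq2.

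Of the 10 genes, those called in Neu-NDL organoids over WT were 2, but 1 with no filter, 6 without the 2 libraries, 5 with only the libraries compared, 4 with the block and 6 by DESeq2. In PyMT 6 day organoids over WT they were 2, but 1 with no filter, 4 with day 6 alone, 0 with the undated pair alone, 0 with only the libraries compared, 0 with the block and 5 by DESeq2. In PyMT sections over WT they were 3, but 7 without the 2 libraries, 7 with only the libraries compared, 8 with the block and 7 by DESeq2. In Neu-NT sections over WT they were 8, and 6 with the block, where Tap1 (adjusted p = 0.0926) and Psmb9 (adjusted p = 0.102) did not pass. Without the 2 libraries 1 was called in day 6 over day 0, 2 in Neu-NT over PyMT sections (1 by DESeq2) and 1 in Neu-NDL over PyMT 6 day organoids, against 0 in each.

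Day 6 over day 0 organoids had 117 genes called, but 3499 without the 2 libraries, 4 with only the libraries compared, 0 with the block and 822 by DESeq2. Day 0 organoids over PyMT sections had 83, but 243, 191 with only the libraries compared and 220 by DESeq2. Neu-NT over PyMT sections had 1814, but 4317, 327 with only the libraries compared, 0 with the block and 3005 by DESeq2. Neu-NDL over PyMT 6 day organoids had 1331, but 834 with no filter, 131 with day 6 alone, 645 with the undated pair alone, 4514 without the 2 libraries, 11 with only the libraries compared, 0 with the block and 2622 by DESeq2. Other than day 6 and day 0, the numbers were shared without every pair varying together.

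With 1 library left out, genes called ran from 115 to 1691 in Neu-NDL organoids, 81 to 2025 in PyMT 6 day organoids, 1830 to 4674 in Neu-NT sections and 525 to 3949 in PyMT sections over WT. They ran from 41 to 2437 in day 6 over day 0, 47 to 169 in day 0 over PyMT sections, 721 to 3095 in Neu-NT over PyMT sections and 173 to 3109 in Neu-NDL over PyMT 6 day organoids. Of the 10 genes, 0 to 5, 0 to 3, 5 to 10 and 1 to 7 were then called over WT in the same order, 0 to 1 in day 6 over day 0, 0 to 2 in Neu-NT over PyMT sections and 0 to 1 in Neu-NDL over PyMT 6 day organoids.

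Signs turned between tumor groups. For day 6 over day 0 without the 2 libraries, H2-K1 was at -0.17, H2-D1 at -0.44, B2m at -0.29, Nlrc5 at -1.90 (-0.81 with the block) and the mean subunit ratio at -0.22. For Neu-NDL over PyMT 6 day organoids, day 6 alone gave H2-K1 -0.29, H2-D1 -0.30, Tap2 -0.053 and Nlrc5 -0.055, and the block Tap2 -0.027. The undated pair alone gave Tapbp 0.014, Psmb8 0.30 and Psmb9 0.14, and the fit without the 2 libraries Tapbp 0.027, Psmb8 0.24, Psmb9 0.28 and a mean subunit ratio of 0.085. No filter gave Psmb8 0.014 and Psmb9 0.0055, and only the libraries compared Psmb8 0.0061 and Psmb9 0.00077. With 1 library left out, day 6 over day 0 ran from -0.20 to 0.79 for H2-K1, -0.47 to 0.61 for H2-D1, -0.32 to 0.90 for B2m, -0.75 to 0.27 for Psmb10, -1.93 to 0.60 for Nlrc5 and -0.22 to 0.42 for the mean ratio. Day 0 over PyMT sections ran from -0.61 to 0.0061 for H2-D1 and -0.40 to 0.0085 for Tap2. Neu-NT over PyMT sections ran from -0.050 to 0.47 for H2-K1, -0.20 to 0.034 for Tapbp, -0.36 to 0.49 for Nlrc5 and -0.12 to 0.38 for the mean ratio. Neu-NDL over PyMT 6 day organoids ran from -0.11 to 0.38 for H2-K1, -0.11 to 0.35 for Tap1, -0.14 to 0.21 for Tap2, -0.15 to 0.10 for Tapbp, -0.46 to 0.27 for Psmb8, -0.31 to 0.30 for Psmb9 and -0.23 to 0.19 for the mean ratio.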
